A study of Homo sapiens with 10 samples.

Results

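The genes described here are 40 heat shock and endoplasmic reticulum (ER) chaperone genes, taken as the rows of the count table whose Ensembl identifiers carry the listed symbols in GENCODE 44, 40 of 60448 genes. They comprise 15 cytosolic chaperones and cochaperones, the heat shock transcription factor HSF1, 3 mitochondrial chaperones, 16 ER chaperones and folding enzymes, 3 components of the unfolded protein response (UPR) and 2 genes of ER-associated degradation (ERAD). The study compared the transcriptomes of 2 immortalized human endothelial cell lines by RNA-seq, with 5 independent replicates of confluent, untreated monolayers of each. EA.hy926 arose by fusing umbilical vein endothelium with A549, a lung carcinoma line, and was kept in Advanced DMEM with 5% fetal bovine serum. HMEC-1 is a line of dermal microvascular endothelium that carries the SV40 large T antigen, and it was kept in MCDB 131 with 10% serum, to which epidermal growth factor (10 ng/mL) and hydrocortisone (1 µg/mL) were added. Line and medium therefore cannot be told apart, and each line is a single established culture, not a panel of donors.

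Chaperones bind unfolded or partly folded proteins and help them fold, refold or be handed over for degradation. In the cytosol, HSP70 and HSP90 proteins work with J-domain cochaperones and nucleotide exchange factors, and many of their genes are driven by HSF1 through heat shock elements when proteins are damaged. The ER holds its own HSP70, HSP90, lectin chaperones and protein disulfide isomerases. When unfolded proteins accumulate there, the sensors IRE1, ATF6 and PERK raise the transcription of these genes, in part through the ER stress response element. Endothelial cells secrete large amounts of protein, among them von Willebrand factor and matrix proteins, and so depend on ER folding.

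Promoter sequence was not part of the rule that chose the genes, and motif matches are given here for the 2 sets of members. Many genes of these kinds are known to be driven through such elements, so the matches describe the sets and test nothing. RefSeq promoter windows on GRCh38.p14, from 250 bases before to 50 bases after each annotated start, were given for 37 of the 40 members in 50 windows. They were not given for CRYAB, HSF1 and PDIA3. A heat shock element of 2 units was searched as GAANNTTC, which reads the same on both strands, and one of 3 units as GAANNTTCNNGAA or TTCNNGAANNTTC, which contains the first. The 2-unit motif was found in 9 of 14 cytosolic chaperone genes, in 1 of 15 ER genes (CANX), in 1 of 3 mitochondrial genes (HSPD1) and in 8.21% of the 27305 genes of the table. The 3-unit motif was found in 4 of the 14 cytosolic genes, in HSPD1, in none of the ER genes and in 0.608% of all genes. The stretches below show the motif in capitals in the 9 cytosolic genes with a match, not every match being printed, 5′ to 3′ on the strand of the gene.
HSPA1A, chr6:31815411-31815470, plus strand: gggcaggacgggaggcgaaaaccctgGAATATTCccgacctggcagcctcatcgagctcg
HSPA1B, chr6:31827607-31827666, plus strand: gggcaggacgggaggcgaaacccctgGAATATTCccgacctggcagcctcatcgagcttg
HSPA8, chr11:123062171-123062200, minus strand: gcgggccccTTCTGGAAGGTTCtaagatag
HSPA8, chr11:123062346-123062375, minus strand: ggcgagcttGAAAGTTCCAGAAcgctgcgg
HSP90AA1, chr14:102087097-102087156, minus strand: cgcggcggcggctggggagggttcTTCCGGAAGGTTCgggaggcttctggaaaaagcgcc
HSP90AB1, chr6:44247754-44247813, plus strand: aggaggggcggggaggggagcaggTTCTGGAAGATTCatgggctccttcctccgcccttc
HSP90AB1, chr6:44247822-44247851, plus strand: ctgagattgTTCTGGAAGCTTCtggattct
DNAJB1, chr19:14518411-14518470, minus strand: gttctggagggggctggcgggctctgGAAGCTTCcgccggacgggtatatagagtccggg
DNAJA1, chr9:33025064-33025093, plus strand: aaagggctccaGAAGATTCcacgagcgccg
HSPB1, chr7:76302465-76302524, plus strand: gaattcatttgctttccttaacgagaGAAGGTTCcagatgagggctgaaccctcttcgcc
HSPB8, chr12:119178817-119178876, plus strand: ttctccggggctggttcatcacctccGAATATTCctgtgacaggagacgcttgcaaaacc

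HSPA1A and HSPA1B, which encode the stress-inducible cytosolic HSP70, share the same 8 bases of the motif, and their upstream windows differed at 14 of 249 bases compared without gaps. HSPA8 and HSP90AB1, the constitutive HSP70 and HSP90 genes, each held 2 matches of 3 units.

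The ER stress response element, searched on both strands as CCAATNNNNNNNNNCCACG, was found in 6 of 15 ER genes (CALR, CANX, CRELD2, HSP90B1, HSPA5 and PDIA6), in XBP1, in none of the 14 cytosolic genes and in 0.0916% of all genes of the table. HSP90B1 held 2 matches. It overlaps none of the heat shock motifs in these windows, and CANX was the one member with both kinds of match. In the other genes of the same pathways, which were listed but are not members, the contrast was weaker: the ER stress element was found in 1 of 28 ER and 0 of 32 cytosolic genes, the 2-unit heat shock element in 4 and 9, and the 3-unit element in 2 and 3 of them. The stretches are those of XBP1 and of 5 of the 6 ER members with a match, that of CANX, which spans the start site, not being printed. Where the match lies on the opposite strand, the capitals begin with CGTGG.
HSPA5, chr9:125241386-125241415, minus strand: ccttcaCCAATCGGCGGCCTCCACGacggg
HSP90B1, chr12:103930210-103930239, plus strand: ccctgaCCAATCGGAAGGAGCCACGcttcg
HSP90B1, chr12:103930315-103930344, plus strand: tgggtgCGTGGTGCGGCGCGATTGGtgggt
PDIA6, chr2:10812848-10812877, minus strand: cccggaCCAATGAGCCGCAGCCACGgcttg
CALR, chr19:12938363-12938422, plus strand: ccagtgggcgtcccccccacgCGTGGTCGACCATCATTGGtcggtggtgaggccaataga
CRELD2, chr22:49918533-49918592, plus strand: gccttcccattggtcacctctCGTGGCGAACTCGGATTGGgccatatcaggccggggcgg
XBP1, chr22:28800598-28800627, minus strand: cgctggCCAATCGCGGAGGGCCACGaccgt

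**Figure D1:**
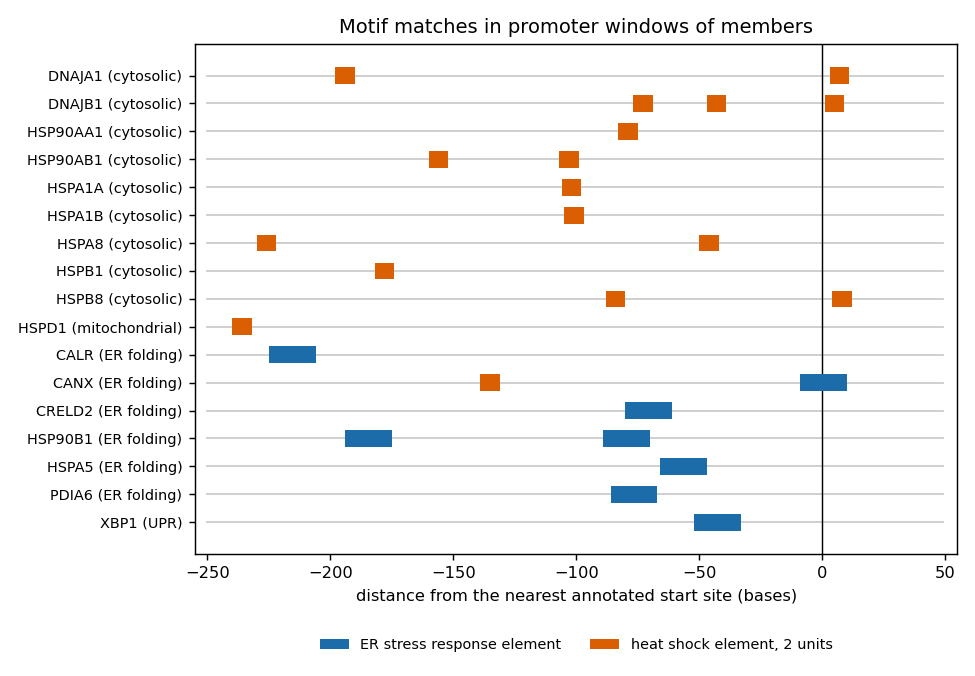
Each line is a member with at least 1 motif match, and the horizontal axis is the distance in bases from the nearest annotated start site. Orange bars are heat shock elements of 2 units and blue bars ER stress response elements. The heat shock matches are in 9 cytosolic genes, HSPD1 and CANX, and the ER stress matches in 6 ER genes and XBP1.

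The windows of PDIA4, SDF2L1 and ERN1, 3 of the members with the largest differences between the lines, held neither motif. Of the rest with large differences, HSPB8 held a heat shock motif and XBP1 the ER stress element, while CRYAB had no window. Only exact matches within the windows were searched. A match is a run of letters and not a measured binding site, and no binding was measured in this series.

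Total counts per library ranged from 34846046 to 39899324 in EA.hy926 against 33391640 to 43877224 in HMEC-1, so that 3 counts corresponded to 0.0651 to 0.0904 CPM (counts per 1000000 of the library total after scaling by TMM factors). Of 8 endothelial marker genes, 7 were well above that level in both lines (the 8 summed to 3750 to 4340 CPM in EA.hy926 against 1390 to 1430 in HMEC-1), and CLDN5 had 0 to 5 counts in EA.hy926 against 51 to 65 in HMEC-1. Of 5 fibroblast markers, COL1A1, COL1A2 and PDGFRB were lower in EA.hy926, with a summed CPM of the list of 0.911 to 1.57 against 472 to 501, while DCN and LUM had no count in any library. The 6 epithelial markers summed to 680 to 738 CPM in EA.hy926 against 124 to 141 in HMEC-1, a sum made up mostly of KRT8 and KRT18. KRT19 was lower in EA.hy926 (0.132 against 3.56 CPM), EPCAM was below 1 CPM on average in both lines, and CDH1 and ESRP1 had 0 to 2 counts in every library. The 4 leukocyte markers summed to at most 0.515 CPM. The part of these differences in the results below was not tested, and in bulk RNA fewer cells of a type and less RNA per cell cannot be told apart.

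All 40 members passed the filter on low counts. At an adjusted p under 0.05 (edgeR's quasi-likelihood test, Benjamini-Hochberg adjustment over 16310 genes), 20 members were higher and 15 lower in EA.hy926, and 5 did not pass (19 higher and 20 lower with library totals without factors, which shift the median log2FC by −0.135). This is 87.5% of the members, beside 85.8% of all genes tested (42.6% higher and 43.3% lower), so the share of members called was near the background. The CPM of the lines did not overlap in 33 of 40 members, beside 77.4% of all genes. With the study's second threshold, an absolute log2 fold change (log2FC, EA.hy926 over HMEC-1) above 1, 3 members were higher (HSPB8, ERN1 and PDIA4) and 3 lower (CRYAB, SDF2L1 and XBP1), which is 15% of the members beside 35.5% of all genes (19.1% higher and 16.4% lower). The median absolute log2FC was 0.46 over the members and 0.65 over all genes tested, and the median log2FC was 0.06 and −0.01. These shares are descriptions, since the members were not chosen at random, and no test was made of them.

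**Figure D2:**
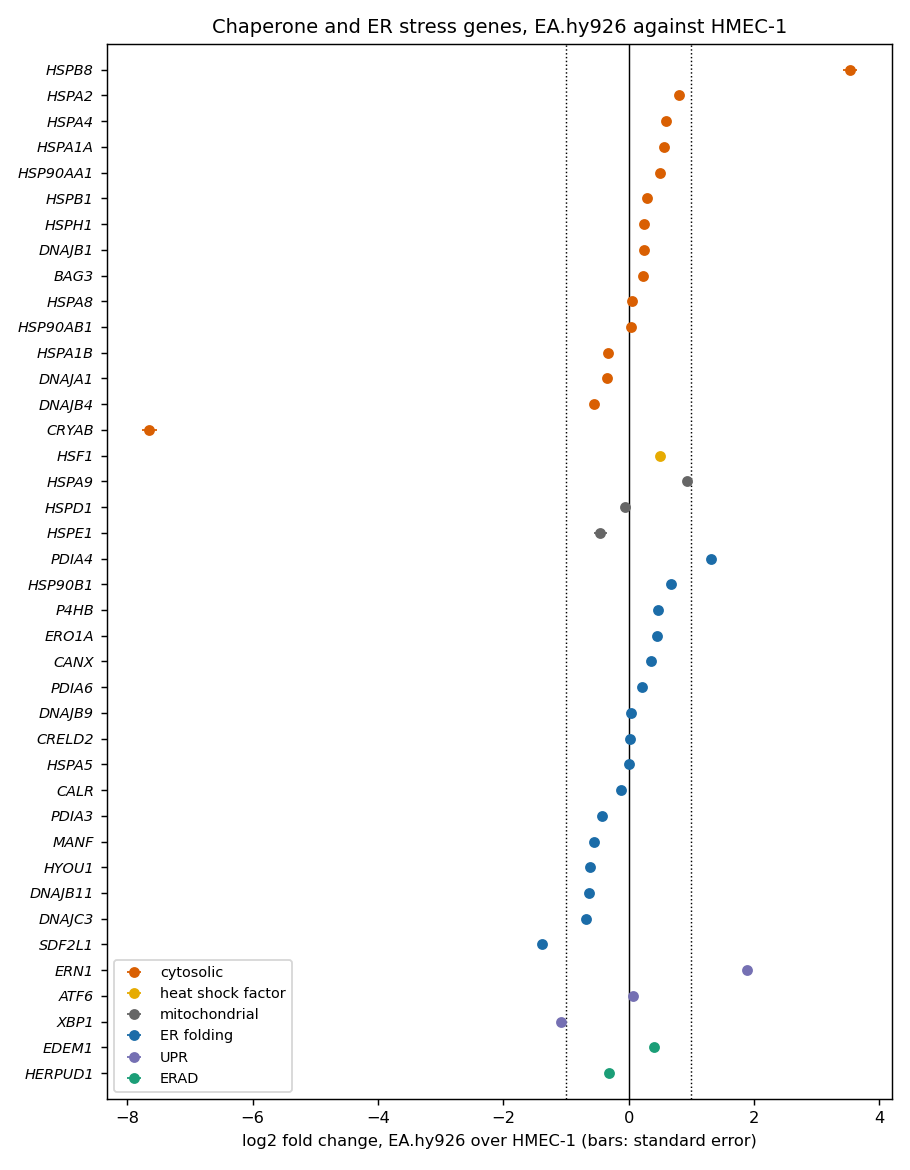
Points are the log2FC of the 40 members, EA.hy926 over HMEC-1, with bars for the standard error and colours for the role. Dotted lines mark a log2FC of 1 and −1. HSPB8 (3.53), ERN1 (1.89) and PDIA4 (1.31) lie to the right of the dotted lines, and CRYAB (−7.65), SDF2L1 (−1.38) and XBP1 (−1.09) to the left.

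Among the cytosolic chaperones, 9 of 15 genes were higher and 4 lower in EA.hy926, with a median log2FC of 0.24. The ER set was divided more evenly, with 6 of 16 genes higher, 7 lower and a median log2FC of 0.01. One gene of each set passed both thresholds in each direction (HSPB8 and CRYAB, PDIA4 and SDF2L1), and the CPM of the lines did not overlap in 13 genes of each set. With library totals without factors the cytosolic counts were 9 higher and 6 lower and the ER counts 6 higher and 9 lower, and without EA.hy926 replicate 2 the cytosolic count was 11 higher. The shares over all genes, 42.6% higher, 43.3% lower and 77.4% without overlap, apply to both sets, and no test was made between them.

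The largest differences were in the small heat shock proteins, ATP-independent chaperones that hold unfolding proteins in solution. HSPB8, which acts with the cochaperone BAG3 in selective autophagy, had 12.3, 11.3, 10.8, 10.8 and 10.1 CPM in replicates 1 to 5 of EA.hy926 and 0.856, 1.30, 0.737, 1.06 and 0.837 CPM in those of HMEC-1. All EA.hy926 libraries lay above all HMEC-1 libraries. The difference was 11.5-fold (log2FC 3.53, SE 0.11, edgeR, adjusted p = 1.56e-17), although its level was low in both lines, each EA.hy926 library holding 374 to 454 counts and each HMEC-1 library 30 to 53. CRYAB, αB-crystallin of lens and muscle, went the other way. It had 0.108, 0.0904, 0.0854, 0.130 and 0.135 CPM in EA.hy926, from 3 to 5 counts per library, and 22.0, 24.8, 23.5, 21.9 and 21.8 CPM in HMEC-1, from 772 to 1082 counts. CRYAB was thus close to the detection limit in every EA.hy926 library and plainly present in every HMEC-1 library. Over the pooled counts, 20 against 4592, it was 207-fold higher in HMEC-1 (95% exact interval 134 to 339, for counting error only; log2FC −7.65, SE 0.11, edgeR, adjusted p = 2.82e-23). Exons of other genes, among them HSPB2, cover 13.6% of its exonic bases. HSPB1 (HSP27), the most abundant of the small heat shock proteins measured here, ranged from 303 to 340 CPM in EA.hy926 against 258 to 267 in HMEC-1, without overlap (1.23-fold, edgeR, adjusted p = 3.22e-09). The 3 genes of one family thus differed from each other in both size and direction.

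In the cytosolic HSP70 system, the constitutive gene HSPA8 did not pass the test. It had 2348, 2245, 2401, 2310 and 2418 CPM in EA.hy926 and 2176, 2418, 2305, 2260 and 2163 CPM in HMEC-1, and the lines overlapped (log2FC 0.05, SE 0.03, edgeR, adjusted p = 0.119; −0.08 and 0.00926 with library totals without factors). Without EA.hy926 replicate 2 it passed as higher (log2FC 0.07, adjusted p = 0.0332). The inducible gene HSPA1A had 74.9, 69.8, 75.7, 72.9 and 76.4 CPM in EA.hy926 and 50.4, 53.3, 47.5, 50.2 and 48.0 in HMEC-1, a 1.48-fold difference upward in EA.hy926 (edgeR, adjusted p = 1.53e-12). Its neighbour HSPA1B had 35.5, 33.7, 33.9, 35.4 and 37.5 CPM in EA.hy926 and 42.4, 47.6, 44.4, 44.6 and 41.5 in HMEC-1, and was 1.25-fold higher in HMEC-1 (edgeR, adjusted p = 1.78e-07). For both copies the libraries of the lines did not overlap, and the directions were opposite. Counts of HSPA1A were 2.10 ± 0.0757 times those of HSPA1B in EA.hy926 and 1.13 ± 0.044 times in HMEC-1 (SD, n = 5). The copies are near-identical, so how the counting divided reads between them is uncertain, and another annotated gene covers 36.6% of the exonic bases of HSPA1B. Their sum does not depend on how the counted reads were divided, but any reads that the counting left out would be missing from it. The sum was 109 ± 3.78 CPM in EA.hy926 and 94.0 ± 4.29 in HMEC-1 (log2FC 0.22, SE 0.03, edgeR, adjusted p = 3.05e-06).

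HSPA2, an HSP70 best known from the male germ line, ranged from 25.3 to 29.2 CPM in EA.hy926 against 14.8 to 15.9 in HMEC-1 (1.75-fold, edgeR, adjusted p = 1.02e-12). HSPA4 and HSPH1, HSP110 proteins that exchange the nucleotide of HSP70, were 1.51-fold and 1.19-fold higher in EA.hy926, at 355 ± 2.64 against 235 ± 5.39 CPM and 294 ± 10.5 against 247 ± 4.33 CPM. None of these 3 genes overlapped between the lines. HSPH1, a member of a ratio compared further on, had 281, 287, 306, 303 and 295 CPM in EA.hy926 and 248, 252, 245, 250 and 241 CPM in HMEC-1.

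Of the cytosolic HSP90 genes, one was higher in EA.hy926 and one did not pass the test. HSP90AA1, the more inducible gene, had 2955, 2939, 3173, 3081 and 3222 CPM in EA.hy926 and 2113, 2194, 2116, 2225 and 2179 in HMEC-1, without overlap (1.42-fold, edgeR, adjusted p = 2.01e-13). The constitutive gene HSP90AB1 had 1591, 1565, 1639, 1614 and 1637 CPM in EA.hy926 and 1509, 1602, 1552, 1620 and 1546 in HMEC-1. Its libraries overlapped and it did not pass the test (log2FC 0.04, SE 0.02, edgeR, adjusted p = 0.137; −0.10 and 0.000903 with library totals without factors). Without EA.hy926 replicate 2 it passed as higher (log2FC 0.06, adjusted p = 0.0469).

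Of the J-domain cochaperones, which deliver substrates to HSP70, 1 was higher and 2 were lower in EA.hy926. DNAJB1 had 212, 214, 215, 221 and 223 CPM in EA.hy926 and 178, 195, 185, 180 and 182 in HMEC-1 (1.18-fold, edgeR, adjusted p = 5.49e-08). DNAJA1, at 356 ± 7.21 against 454 ± 19.0 CPM, and DNAJB4, at 157 ± 8.38 against 231 ± 5.62 CPM, were 1.28-fold and 1.47-fold higher in HMEC-1. The cochaperone BAG3, the partner of HSPB8, was at 102 ± 1.71 CPM in EA.hy926 and 87.0 ± 2.75 in HMEC-1, a 1.17-fold difference beside the 11.5-fold difference of HSPB8. HSF1 itself was 1.41-fold higher in EA.hy926, at 120 ± 2.84 against 84.9 ± 2.20 CPM (edgeR, adjusted p = 2.03e-13). For each of these 5 genes the lines did not overlap.

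The mitochondrial chaperones did not share a direction. HSPA9 (mortalin), the HSP70 of the mitochondrial matrix, had 514, 505, 529, 550 and 541 CPM in EA.hy926 and 269, 281, 283, 282 and 268 CPM in HMEC-1. The lines lay apart, by 1.91-fold (log2FC 0.93, SE 0.03, edgeR, adjusted p = 4.6e-18), just under the second threshold. HSPD1 (HSP60) ranged from 444 to 475 CPM in EA.hy926 against 463 to 497 in HMEC-1, which overlap, and its log2FC was −0.06 (edgeR, adjusted p = 0.035). That call was lost without EA.hy926 replicate 1, 2 or 3 (adjusted p = 0.142, 0.139 and 0.0536) and with a filter of at least 10 counts in every library (0.0638). HSPE1 (HSP10), the co-chaperonin that caps HSP60 and shares a bidirectional promoter with HSPD1, was at 7.91 ± 1.05 against 10.8 ± 1.96 CPM (log2FC −0.45, SE 0.11, edgeR, adjusted p = 0.000468). The counts of HSPD1 were 59.4 ± 9.21 times those of HSPE1 in EA.hy926 and 45.4 ± 6.57 times in HMEC-1. The HSPE1 counts are uncertain, since other genes cover 17.9% of its exonic bases and the read-through gene HSPE1-MOB4, which contains its exons, was listed at 0 in all 10 libraries.

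In the ER, the HSP70 HSPA5 (BiP), the central chaperone of the compartment and the classical indicator gene of the UPR, overlapped between the lines. It had 1128, 1089, 1128, 1157 and 1140 CPM in EA.hy926 and 1103, 1168, 1114, 1154 and 1107 in HMEC-1 (log2FC −0.001, SE 0.024, edgeR, adjusted p = 0.96), and with library totals without factors its log2FC was −0.136 and passed the test. HSP90B1 (GRP94), the ER HSP90, was at 2101, 2033, 2099, 2006 and 2012 CPM against 1238, 1317, 1262, 1310 and 1313 CPM, and so higher in EA.hy926 by 1.59-fold (edgeR, adjusted p = 1.98e-16). Of the partners of HSPA5 among the members, 3 were lower in EA.hy926 and 1 did not pass the test. HYOU1 (GRP170), a nucleotide exchange factor, had 175, 162, 171, 166 and 170 CPM in EA.hy926 and 254, 259, 250, 261 and 265 in HMEC-1 (1.53-fold higher in HMEC-1, edgeR, adjusted p = 2.57e-15). DNAJB11 (ERdj3) had 91.9, 85.5, 88.6, 85.6 and 87.7 CPM in EA.hy926 and 136, 138, 135, 133 and 136 in HMEC-1 (1.54-fold higher in HMEC-1, edgeR, adjusted p = 2.13e-15). For both partners the lines did not overlap. DNAJC3 (p58IPK) was 1.61-fold higher in HMEC-1, at 57.0 ± 2.29 against 91.8 ± 2.79 CPM, while DNAJB9 (ERdj4), at 21.8 ± 0.616 against 21.1 ± 1.12 CPM, overlapped (log2FC 0.04, SE 0.04, edgeR, adjusted p = 0.349). Of its partners that are not members, the exchange factor SIL1 (log2FC 0.94) and the J-domain protein DNAJC10 (log2FC 1.27) were higher in EA.hy926. The J-domain protein DNAJC1 (log2FC −0.55) was lower, and SEC63 (log2FC −0.05) did not pass the test. These genes were picked out after their values were seen.

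The lectin chaperones of glycoprotein folding moved in opposite directions. Membrane-bound calnexin, CANX, was 1.29-fold higher in EA.hy926 at 1110 ± 24.0 against 863 ± 2.93 CPM, and soluble calreticulin, CALR, 1.09-fold higher in HMEC-1 at 1155 ± 16.4 against 1264 ± 29.5 CPM (edgeR, adjusted p = 1.33e-12 and 2.29e-05). PDIA3 (ERp57), the disulfide isomerase that both lectins recruit, was 1.35-fold higher in HMEC-1.

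The other disulfide isomerases among the members, which form and rearrange disulfide bonds, were higher in EA.hy926. PDIA4 (ERp72) had 896, 861, 876, 864 and 860 CPM in EA.hy926 and 353, 346, 344, 352 and 363 CPM in HMEC-1. The lines were far apart relative to the spread within each, by 2.48-fold (log2FC 1.31, SE 0.02, edgeR, adjusted p = 7.16e-22). P4HB (PDI) was 1.38-fold, PDIA6 1.16-fold and ERO1A, the oxidase that recharges PDI, 1.37-fold higher in EA.hy926, each without overlap. Exons of ATP6V1C2 cover 25.2% of the exonic bases of PDIA6.

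SDF2L1, a small partner of the ER J-domain proteins, had 14.3, 13.3, 13.4, 13.8 and 11.1 CPM in EA.hy926 and 36.0, 33.3, 36.4, 34.4 and 31.8 in HMEC-1. No library of one line reached the other, and the gene was 2.60-fold higher in HMEC-1 (log2FC −1.38, SE 0.06, edgeR, adjusted p = 1.59e-15). MANF, a secreted ER stress protein, was 1.47-fold higher in HMEC-1, at 62.3 ± 2.99 against 91.8 ± 4.34 CPM. CRELD2, also induced by ER stress, overlapped at 44.7 ± 2.19 against 43.9 ± 2.35 CPM (log2FC 0.03, SE 0.04, edgeR, adjusted p = 0.557; −0.11 and 0.0155 with library totals without factors).

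Of the UPR components, ERN1 and XBP1 are consecutive steps: the kinase and ribonuclease IRE1, encoded by ERN1, splices the mRNA of the transcription factor XBP1. They differed in opposite directions. ERN1 had 34.0, 31.0, 34.2, 31.4 and 33.8 CPM in EA.hy926 and 8.70, 8.95, 9.93, 8.32 and 8.48 CPM in HMEC-1 (3.70-fold, log2FC 1.89, SE 0.05, edgeR, adjusted p = 1.38e-18). XBP1 had 44.9, 45.4, 44.2, 46.3 and 45.8 CPM in EA.hy926 and 97.3, 100.4, 95.6, 94.1 and 93.8 in HMEC-1 (2.12-fold higher in HMEC-1, log2FC −1.09, SE 0.03, edgeR, adjusted p = 4.84e-19). Neither gene overlapped between the lines. Counts per gene do not separate spliced from unspliced XBP1, so IRE1 activity was not measured. ATF6, the membrane-bound transcription factor, ranged from 149 to 158 CPM in EA.hy926 against 141 to 150 in HMEC-1, which overlap (log2FC 0.07, edgeR, adjusted p = 0.0181), and under library totals without factors the call reversed (log2FC −0.07, adjusted p = 0.0233). It was lost without HMEC-1 replicate 1, 2 or 3 (adjusted p = 0.0869, 0.141 and 0.0865) and without a filter on low counts (0.165).

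The ERAD genes also differed from each other. EDEM1, a lectin that routes misfolded glycoproteins to degradation, was 1.33-fold higher in EA.hy926 (119 ± 6.50 against 89.3 ± 1.11 CPM), and HERPUD1, a scaffold of the ubiquitin ligase complex, 1.24-fold higher in HMEC-1 (66.5 ± 2.08 against 82.2 ± 3.10 CPM). Both lay outside the range of the other line.

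**Figure D3:**
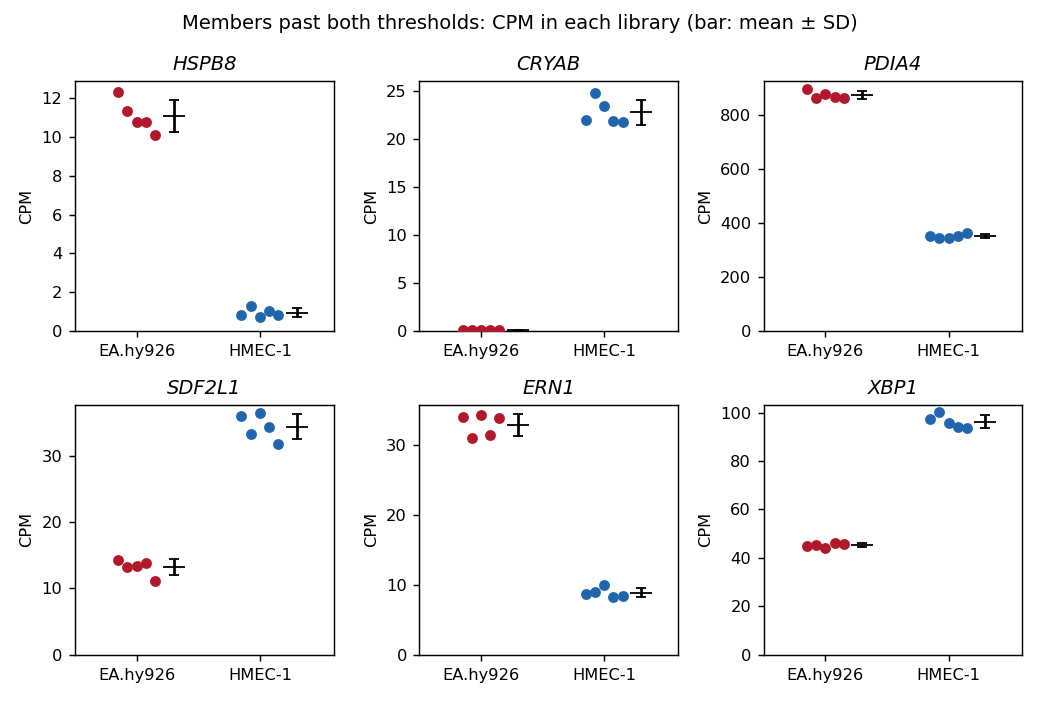
CPM of the 6 members past both thresholds in each library, 5 points per line, with the mean and SD as a bar beside them; each vertical axis starts at 0. HSPB8, PDIA4 and ERN1 are higher in all EA.hy926 libraries and CRYAB, SDF2L1 and XBP1 in all HMEC-1 libraries, with no overlap in any panel.

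To set cytosolic genes against their ER counterparts without depending on the scaling of libraries, the log2 ratio of the counts of 2 genes was taken within each library (0.5 added to each count). The 6 ratios were compared by a two-sided exact permutation test, with Benjamini-Hochberg adjustment over the 6. The smallest p that 5 libraries against 5 allow is 0.00794. HSPA8 over HSPA5, the HSP70 pair, was 1.06, 1.04, 1.09, 1.00 and 1.09 in EA.hy926 and 0.98, 1.05, 1.05, 0.97 and 0.97 in HMEC-1. The ranges overlap, and the difference of 0.05 (SE 0.03) did not pass (exact permutation test, p = 0.0714, adjusted p = 0.0714). Without HMEC-1 replicate 2 or replicate 3 it was 0.064 and 0.063, at an adjusted p of 0.0476 each in the exact permutation test.

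The other 5 ratios did not overlap between the lines, each with an exact permutation p of 0.00794 and an adjusted p of 0.00952. Single genes did not overlap in 77.4% of all genes tested. The same share was not computed over other gene pairs, so these separations may be no rarer than elsewhere. HSP90AB1 over HSP90B1, the HSP90 pair, was −0.40, −0.38, −0.36, −0.31 and −0.30 in EA.hy926 and 0.29, 0.28, 0.30, 0.31 and 0.24 in HMEC-1, a difference of −0.63 (SE 0.02). The ER gene thus had more counts than the cytosolic one in EA.hy926 and fewer in HMEC-1. For the pair of nucleotide exchange factors and the pair of J-domain proteins the shift was in the opposite direction. HSPH1 over HYOU1 was 0.69, 0.82, 0.84, 0.86 and 0.79 in EA.hy926 and −0.04, −0.04, −0.03, −0.06 and −0.13 in HMEC-1, a difference of 0.86 (SE 0.04). DNAJB1 over DNAJB11 was 1.21, 1.32, 1.28, 1.37 and 1.35 in EA.hy926 and 0.38, 0.50, 0.45, 0.44 and 0.42 in HMEC-1, a difference of 0.87 (SE 0.03). The cytosolic genes therefore did not move against the ER genes in one common direction: of the 4 pairs, 2 shifted toward the cytosolic gene in EA.hy926, 1 toward the ER gene, and 1 did not pass the test. Each kind of chaperone was represented by the pair named, and other pairings were not compared.

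Both ratios of an inducible to a constitutive cytosolic gene were higher in EA.hy926. HSP90AA1 over HSP90AB1 was 0.89, 0.91, 0.95, 0.93 and 0.98 in EA.hy926 and 0.49, 0.45, 0.45, 0.46 and 0.50 in HMEC-1, a difference of 0.47 (SE 0.02). The sum of HSPA1A and HSPA1B over HSPA8 was −4.41, −4.44, −4.45, −4.42 and −4.41 in EA.hy926 and −4.55, −4.58, −4.65, −4.58 and −4.60 in HMEC-1, a difference of 0.17 (SE 0.02). Within that sum, HSPA1A was higher and HSPA1B lower in EA.hy926 (log2FC 0.57 and −0.33). In counts, the inducible HSP70 genes together made 0.0465 of HSPA8 in EA.hy926 and 0.0415 in HMEC-1, so the constitutive gene had far more counts in both lines. Any reads of the near-identical HSPA1A and HSPA1B that the counting left out are missing from this ratio.

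**Figure D4:**
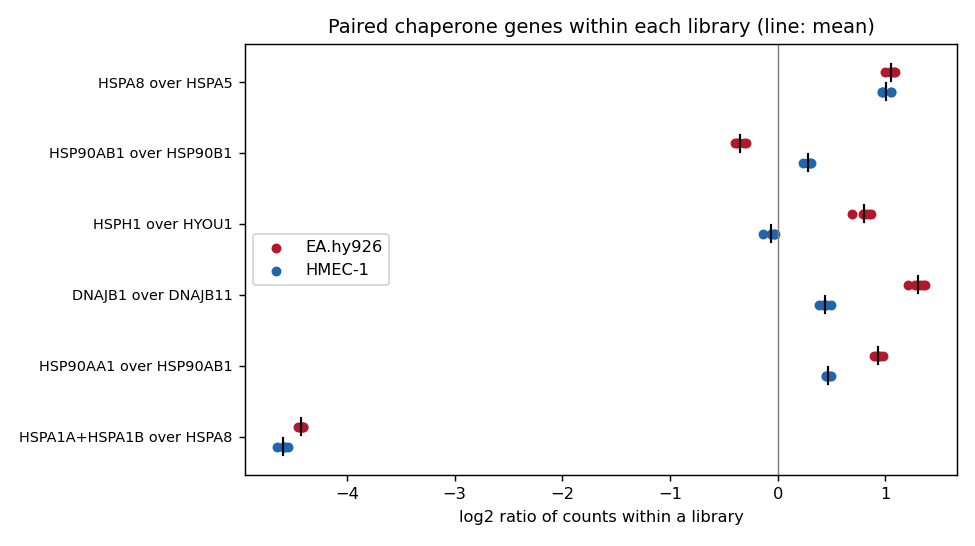
Log2 ratio of the counts of 2 genes within each library on the horizontal axis, for 6 gene pairs; red points are EA.hy926 libraries, blue points HMEC-1 libraries, and black lines their means. The lines overlap for HSPA8 over HSPA5 and are apart for the other 5 ratios, with HSP90AB1 over HSP90B1 lower and the other 4 higher in EA.hy926.

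Levels of different genes were compared per length, as CPM per kilobase of exon. With the union of all annotated exons as the length, the highest in EA.hy926 were HSP90AA1 (603 ± 24.9), HSP90AB1 (540.0 ± 10.5), HSPA8 (483.5 ± 14.5) and CALR (412 ± 5.85). In HMEC-1 the same 4 genes were highest in another order, HSP90AB1 (526 ± 15.04), HSPA8 (467 ± 21.4), CALR (451 ± 10.5) and HSP90AA1 (425 ± 9.69), of which HSPA8 and CALR differed by less than the SD of HSPA8. The order within these 4 depends on the length used. Per kilobase of the longest transcript the same 4 were highest, but HSPA8 came first in both lines (1017 ± 30.5 and 982 ± 45.1), followed in EA.hy926 by HSP90AA1 (876 ± 36.1), CALR (608 ± 8.62) and HSP90AB1 (602 ± 11.8), the last 2 within their SDs. PDIA4 was at 264 ± 4.63 in EA.hy926 and 107 ± 2.26 in HMEC-1 by the union of exons, above HSP90B1 (157 ± 3.53) in EA.hy926, and below it per longest transcript (298 ± 5.22 against 310 ± 6.99). The lowest members were CRYAB, ERN1 and HSPB8 in EA.hy926 (0.0250, 1.72 and 3.09) and HSPB8, ERN1 and HSPA2 in HMEC-1 (0.267, 0.463 and 2.80), by the union of exons. Of the 6 members past both thresholds, PDIA4 had the highest level in both lines by either length. Summed over the 15 cytosolic members, the per-length level was 2224 ± 44.8 in EA.hy926 and 1988 ± 49.3 in HMEC-1, and over the 16 ER members 1414 ± 17.9 and 1254 ± 15.7. Most of each difference came from a single gene. HSP90AA1 was at 603 against 425 in the cytosolic sum, and PDIA4 at 264 against 107 in the ER sum. The sums therefore do not show a rise of either set as a whole. As shares of the library totals without TMM factors, the cytosolic members took 0.857% and 0.820% of all counts and the ER members 0.820% and 0.761%. The library ranges overlapped for the cytosolic share and not for the ER share. The per-length sums, which are TMM-scaled, overlapped for neither set (cytosolic 2161 to 2269 in EA.hy926 against 1935 to 2059 in HMEC-1).

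**Figure D5:**
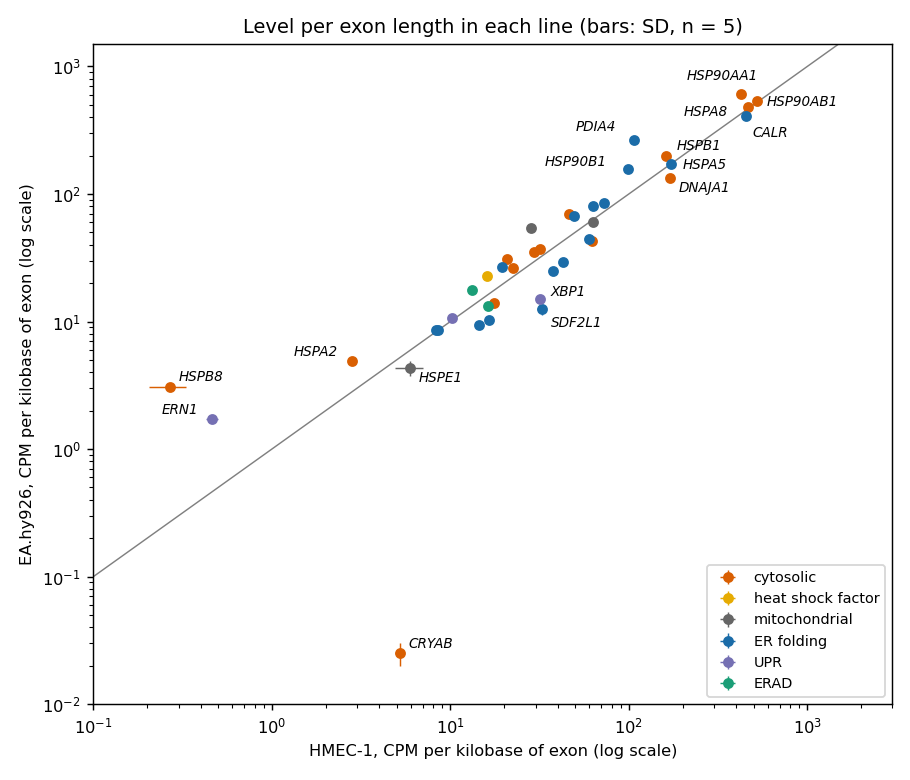
Level of each member in CPM per kilobase of exon in HMEC-1 (horizontal) and EA.hy926 (vertical), both on log scales, with SD bars over 5 libraries and the line of equality in grey. Most members lie close to the line over a wide range of levels, while HSPB8 and ERN1 lie above it and CRYAB far below it.

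Replicates of a line were close, with a median coefficient of variation over the 40 members of 3.00% in EA.hy926 and 2.72% in HMEC-1. The highest were 20.4% for CRYAB in EA.hy926 and 23.3% for HSPB8 in HMEC-1, both at low counts. Members of some sets tended to peak in the same library, and the same count was not made over all genes. HMEC-1 replicate 2 was the highest HMEC-1 library for 11 of 15 cytosolic and 8 of 16 ER members, and EA.hy926 replicate 1 the highest EA.hy926 library for 11 of 16 ER members. The cytosolic members were spread in EA.hy926, with replicate 1 the highest for 4 of 15, replicate 3 for 5 and replicate 5 for 6. The 6 members past both thresholds kept direction and thresholds without any single library.

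A further 104 genes of the same pathways were listed, of which 98 were tested, and 41 were higher and 50 lower in EA.hy926, with 9 and 8 past both thresholds. This is 92.9% called and 17.3% past both thresholds, beside 85.8% and 35.5% of all genes tested, and the counts by list that follow are to be read against those shares. The 39 other cytosolic genes, among them the CCT chaperonin and HSP90 cochaperones, had 15 higher and 18 lower. The largest differences past both thresholds were in DNAJA4, with 1 to 5 counts in EA.hy926 against 406 to 532 in HMEC-1, the small heat shock protein HSPB6, with 0 to 3 and 13 to 21 counts, and DNAJB5, at 4.94 ± 0.266 against 27.5 ± 0.858 CPM (log2FC −2.47). Exons of other genes cover 38.3% of HSPB6. All 3 were lower in EA.hy926, like CRYAB and unlike HSPB8. Past both thresholds, the other cytosolic genes had 2 higher and 4 lower. The 9 other mitochondrial genes had 4 higher and 3 lower, none past both thresholds.

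Of the 31 other ER genes, 13 were higher and 14 lower. Past both thresholds, the largest differences were in ERO1B, the second PDI oxidase, at 2.74 ± 0.452 against 13.7 ± 0.734 CPM (log2FC −2.32), in PDIA5, a disulfide isomerase, at 135 ± 3.04 against 39.8 ± 1.17 CPM (log2FC 1.76), and in PRKCSH, the β subunit of glucosidase II, at 609 ± 9.80 against 230 ± 3.90 CPM (log2FC 1.41). ERO1B was thus lower and its paralogue ERO1A higher in EA.hy926. The 14 other ERAD genes had 6 higher and 8 lower, with EDEM2, which starts the trimming of mannose from misfolded glycoproteins, at 200 ± 7.84 against 26.9 ± 0.707 CPM (log2FC 2.89), MAN1B1, an ER mannosidase, at 181 ± 4.71 against 76.6 ± 1.12 CPM (log2FC 1.24), and DERL3 at 0.615 ± 0.0979 against 3.34 ± 0.256 CPM (log2FC −2.44), of whose exonic bases other genes cover 77.0%. Of the 11 other UPR genes, 3 were higher and 7 lower. CREB3L1 (OASIS), a transcription factor of collagen-secreting cells, had 0 to 4 counts in EA.hy926 against 146 to 259 in HMEC-1. The fibroblast marker COL1A1 was at 0.318 ± 0.0977 against 358 ± 9.29 CPM, while the markers DCN and LUM had no count in any library. A link between these markers and CREB3L1 was not tested. EIF2AK3, which encodes the sensor PERK, was at 9.69 ± 0.707 against 24.6 ± 0.801 CPM (log2FC −1.34). Of the genes of the 3 sensors, ERN1 was thus higher and EIF2AK3 lower in EA.hy926, and ATF6 overlapped between the lines.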

How the data were processed

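RNA-seq libraries of untreated EA.hy926 and HMEC-1 (5 each) were grouped by their labels. Poly(A) RNA was captured with oligo(dT) and read on an Illumina platform, and the authors mapped it to GRCh38 with HISAT2 and deposited raw counts per gene. The paper names HTSeq for the counting and the submitters' processing notes name fastp, HISAT2, featureCounts and DESeq2; versions, annotation release and strand setting are not given in the sources used here, so overlapping genes and near-identical copies are uncertain.

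GENCODE 44 identifiers matched 56434 of 60448 genes; bedtools 2.31.1 gave the overlap of exons, ignoring strand. After filterByExpr (at least 10 counts, 15 in total) and TMM scaling, the lines were compared by the quasi-likelihood test of edgeR 4.0.16 (R 4.3.3), without covariates, with Benjamini-Hochberg adjustment. The standard error of a log2FC is its size over the square root of F. The exact interval of CRYAB used scipy 1.17.1, and the permutation tests were computed directly over all arrangements of the libraries. Totals of 33391640 to 43877224 counts set the precision; intervals cover counting error only, and p-values only the spread between these cultures. Tests were tried on simulated counts.

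Same-numbered replicates of the lines did not vary together (correlations of same-numbered deviations −0.0228 to 0.0389). Whether the cultures were handled in pairs is not shown by this. Replicates differed by more than sampling noise, and no library was counted as a duplicate. Alternatives were DESeq2 1.42.0, limma-voom (limma 3.58.1), other filters and factors, glmTreat, a replicate block, libraries left out in turn, HSPA1A and HSPA1B summed, transcript length and another pseudocount.

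The members and lists were chosen with earlier results of these data known. All members are accounted for, with values per library for those past both thresholds or in a ratio; HSPA9, at the edge of the second threshold, was given per library after its values were seen. Of other pathway genes, at most 3 per list are named, those past both thresholds with the largest absolute log2FC and at least 10 counts in every library of the higher line. SIL1, DNAJC10, DNAJC1 and SEC63 were named outside that rule, after their values were seen. Promoter sequences are RefSeq's, and protein sequences were not used here.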

Additional observations from a re-analysis of the deposited data

How the results depend on the processing

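The 3 higher and 3 lower members past both thresholds kept their number and direction under all alternatives run, except that at least 10 counts in every library left CRYAB out, with 39 members tested. Over all genes, 5784 passed both thresholds (3110 higher), against 9312 (4975 higher) without a filter and 3255 (1857 higher) with at least 10 counts in every library, which test 33071 and 13107 genes in place of 16310. Library totals without factors shifted the median log2FC by −0.135, giving 19 members higher and 20 lower. HSPA8 (−0.084), HSP90AB1 (−0.095), DNAJB9 (−0.090), CRELD2 (−0.109) and ATF6 (−0.066) then turned negative, and all but DNAJB9, with HSPA5 (−0.136), passed the test as lower, so the direction of these genes rests on the scaling. HSPA5 was 0.0018 with DESeq2 and with RLE factors and 0.0064 with at least 10 counts in every library. Without EA.hy926 replicate 2, HSPA8 and HSP90AB1 passed as higher. With 1 library left out, HSPA5 ranged from −0.024 to 0.018 and CRELD2 from −0.014 to 0.062. Taken per longest transcript, the summed levels were 3201 and 2862 for the cytosolic and 2126 and 1928 for the ER members, in EA.hy926 and HMEC-1. The replicate block changed no member's call. A sign-flip permutation test of the ratios paired by replicate number left the differences −0.631, 0.862, 0.869, 0.465 and 0.165 at p = 0.0625, the smallest it can give (adjusted p = 0.075). HSPA8 over HSPA5 ranged from 0.0429 to 0.0665 with 1 library left out. ATF6 and HSPD1 each lost their call in 4 alternatives. The depth of the libraries limits CRYAB in EA.hy926, where 3 to 5 counts per library stand near the limit of 3.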
